A study of Mus musculus with 33 samples.

Results

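Hemoglobin and red cell genes of the mouse hypothalamus were followed across 33 bulk RNA-seq libraries. The group holds 7 genes, taken by name from the 41565 named entries of the deposited table. These are the adult α globin genes *Hba-a1* and *Hba-a2*, the adult β globin genes *Hbb-bs* and *Hbb-bt*, the heme synthesis gene *Alas2*, and the membrane genes *Slc4a1* and *Epb42*. The set was chosen by gene function with results of these libraries known, among them the log2 signal of the PH at 4 months against intact, in which *Alas2* was known to pass the test. Values of the 7 genes in that comparison are therefore given as a description, without a test.

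The libraries came from adult WT C57BL/6 female mice. The PH (posterior hypothalamus) and the POA (preoptic area) were dissected and flash-frozen. The PH gave 4 libraries of intact mice, 6 of mice taken 14 days after OVX (ovariectomy) and 6 of mice taken 4 months after OVX, and the POA gave 5, 6 and 6. Intact mice are called sham in the library titles and intact in the genotype labels, and the study's methods describe females taken in diestrus before any OVX, so no sham operation is described for them. OVX was bilateral and was done at 3 to 4 months of age. Mice taken 4 months after surgery were thus older than intact mice, and age and time since OVX cannot be told apart. Every group is spread over 2 labelled batches, with 2 or 3 libraries of the group in each. Blood left in the dissected tissue was not measured, and more blood cells and more RNA per blood cell cannot be told apart in bulk tissue.

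Hemoglobin of adult mice is a tetramer of α and β globin chains, each of which holds a heme group. *Alas2* encodes the erythroid form of 5-aminolevulinate synthase, which starts heme synthesis in maturing red cells. *Slc4a1* encodes band 3, the chloride-bicarbonate exchanger of the red cell membrane, and *Epb42* encodes a membrane protein that links band 3 to the membrane skeleton. Mature mouse red cells have no nucleus, whereas reticulocytes, the youngest cells in blood, still carry globin and *Alas2* mRNA. Globin mRNA has also been described in some neurons and glia.

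The 2 α globin genes lie beside each other on chromosome 11, with *Hba-a1* at chr11:32233186-32234504 and *Hba-a2* at chr11:32246168-32247320, both on the + strand (GRCm39, GENCODE M39). On chromosome 7, *Hbb-bt* lies at chr7:103461727-103465047 and *Hbb-bs* at chr7:103475730-103482989, both on the − strand. *Alas2* lies at chrX:149330371-149353634 on the + strand. *Slc4a1* lies at chr11:102239650-102257029 and *Epb42* at chr2:120848372-120867553, both on the − strand. Entries of the table are whole genes, so the values cover all exons of a gene.

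The 250 bases upstream of the RefSeq start are shown for 5 of the genes, because 4 of them moved together across libraries and *Epb42* did not. They run 5′ to 3′ on the strand of the gene (RefSeq, GRCm38.p6). Capitals mark AGATAA or TGATAA, the letters of a GATA motif, and CACCC, the letters of a CACCC box, found on either strand, so that TTATCT and GGGTG are the same motifs read from the other strand. No marked GATA motif overlaps a marked CACCC box.
*Hba-a1*, chr11:32283422-32283671, + strand: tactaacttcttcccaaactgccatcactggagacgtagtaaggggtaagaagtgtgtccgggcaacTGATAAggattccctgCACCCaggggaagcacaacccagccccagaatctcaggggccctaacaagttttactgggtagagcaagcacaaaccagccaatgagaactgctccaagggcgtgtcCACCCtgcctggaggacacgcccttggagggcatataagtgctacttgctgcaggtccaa
*Hbb-bs*, chr7:103827929-103828178, − strand: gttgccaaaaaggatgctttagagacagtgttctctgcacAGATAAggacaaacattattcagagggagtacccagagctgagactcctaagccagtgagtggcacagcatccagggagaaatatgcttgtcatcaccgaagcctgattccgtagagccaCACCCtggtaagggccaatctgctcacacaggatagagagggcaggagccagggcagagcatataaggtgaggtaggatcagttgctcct
*Hbb-bt*, chr7:103813924-103814173, − strand: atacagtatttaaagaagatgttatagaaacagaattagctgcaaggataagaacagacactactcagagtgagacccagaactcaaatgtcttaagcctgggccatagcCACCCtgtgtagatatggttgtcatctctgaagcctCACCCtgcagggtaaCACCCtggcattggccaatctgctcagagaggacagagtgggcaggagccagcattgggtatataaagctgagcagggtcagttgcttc
*Alas2*, chrX:150547167-150547416, + strand: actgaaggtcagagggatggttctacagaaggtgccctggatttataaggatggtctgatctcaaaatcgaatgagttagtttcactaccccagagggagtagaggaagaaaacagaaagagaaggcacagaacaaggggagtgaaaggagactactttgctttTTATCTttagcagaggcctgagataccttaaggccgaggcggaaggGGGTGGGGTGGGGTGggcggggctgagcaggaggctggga
*Epb42*, chr2:121036878-121037127, − strand: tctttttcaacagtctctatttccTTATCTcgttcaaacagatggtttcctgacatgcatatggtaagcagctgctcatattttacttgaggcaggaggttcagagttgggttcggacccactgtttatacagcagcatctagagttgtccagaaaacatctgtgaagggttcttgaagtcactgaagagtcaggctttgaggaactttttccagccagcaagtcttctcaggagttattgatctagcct

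Of the 7 genes, 6 were matched in the RefSeq table, and *Slc4a1* was not. The upstream stretch of *Hba-a2* (chr11:32296242-32296491, + strand) aligned with that of *Hba-a1* without a mismatch over 247 bases and is not printed. The stretches of *Hbb-bs* and *Hbb-bt* were identical at 77.4% of aligned bases. A GATA motif was found in 5 of the 6 stretches, all but that of *Hbb-bt*, and in 16.6% of the 32851 upstream stretches of the same length. CACCC was found in 5 of the 6, all but that of *Epb42*, and in 52.0% of all stretches. *Alas2* had 3 CACCC boxes next to each other on the other strand, from -40 to -26 bases relative to the start. Of the other motifs searched on both strands, TATAAA was found in *Hbb-bt*, *Alas2* and *Epb42* and in 12.4% of all stretches, and CCAAT in the 4 globin genes and in 33.8% of all stretches. These matches describe letters only.

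The copies are also alike in their mRNA. Of the 31-base words of the *Hba-a2* transcript, 95.0% also occur in *Hba-a1*, and of those of *Hbb-bt*, 59.3% occur in *Hbb-bs*. The authors' pseudoalignment divides reads between such copies by estimation, so the split within a pair is uncertain and summed copies are given beside the single genes.

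Values are the deposited normalized signal on a linear scale. Its floor, near which unexpressed genes lie, was 22.1, and a gene was tested when its signal reached 44.2, or 2 times that level, in 4 or more PH libraries or 5 or more POA libraries. All 7 genes passed in both regions. The 4 globin genes and *Alas2* were over 44.2 in every library. *Slc4a1* was over it in 9 of 16 libraries of the PH and 7 of 17 of the POA, with only 1 intact library in each region, so it passed largely through the groups in which it was high. *Epb42* was over it in 13 and 10 libraries. Levels are not compared between the regions or between genes, since the values are not per length and how the regions were scaled against each other is not given in the sources used here.

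Of the hypothalamic marker genes, 8 of 9 were over 44.2 in every library, and *Hcrt*, the orexin gene, in 32 of 33. The sum of all signal per library was 44534053 to 54486361 except in the PH of 14-day replicate 5, where it was 72945400, and the surrogate variable SV1 stood apart there as well. Differences from 14 days in the PH are given with and without that library. Read depth is unknown, since the deposited values are not counts.

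In the PH, all 4 globin genes were highest 4 months after OVX. *Hba-a1* signal in the 4 intact libraries was 1099, 714, 1227 and 841. At 14 days it was 683 at the lowest, 1417 at the median and 1577 at the highest, and at 4 months 1440, 2336 and 5001. Each 4-month library was above each intact library, and 5 of 6 were above each 14-day library.

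*Hba-a2* signal in intact PH was 3087, 2592, 2873 and 2353. It was 1651, 4328 and 5748 (lowest, median and highest) at 14 days and 4587, 6949 and 12207 at 4 months. The lowest 14-day library, replicate 5, lay below every intact library, whereas the other 14-day libraries lay above them all.

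*Hbb-bs*, an adult β globin gene, had signals of 3261, 2888, 3668 and 2714 in intact PH. It was 4092, 4858 and 6217 (lowest, median and highest) at 14 days. At 4 months it was 4457, 8059 and 16731. *Hbb-bs* was the only gene of the 7 whose 14-day and intact libraries did not overlap in the PH.

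*Hbb-bt* signal in intact PH was 410, 383, 511 and 472. It was 404, 791 and 885 at 14 days and 719, 1308 and 2669 at 4 months. Again 14-day replicate 5 fell among the intact libraries, and the 4-month libraries lay above all of these.

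**Figure D1:**
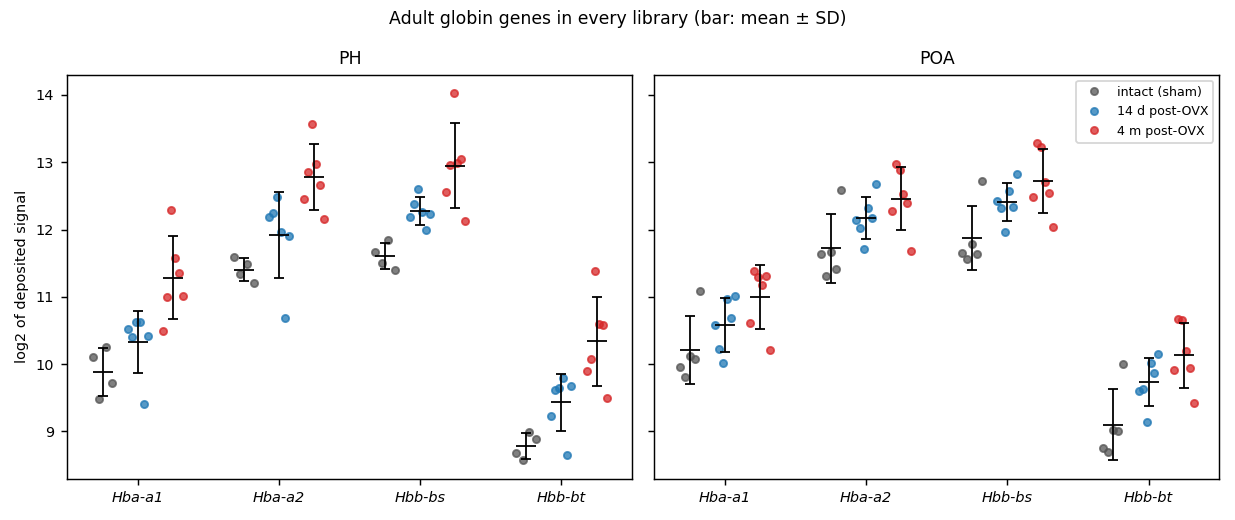
Log2 of the deposited signal (y axis) of the 4 adult globin genes (x axis) in each library of the PH and the POA. Points are libraries, colors are the 3 groups (intact, 14 days and 4 months after OVX), and bars show mean ± SD. In the PH, each 4-month point lies above each intact point of the same gene. In the POA, 1 intact library lies among the post-OVX libraries.

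The mean log2 signal of the 4 globin genes, called the hemoglobin mean here, was 10.42 ± 0.19 (SD, n = 4) in intact PH. It was 10.99 ± 0.41 (SD, n = 6) at 14 days and 11.84 ± 0.58 (SD, n = 6) at 4 months. The difference from intact at 4 months was 1.42 over all libraries, 1.60 within batch 1 and 1.239 within batch 2. Between 4 months and 14 days it was 0.85, and 0.79 and 0.91 within the batches. Between 14 days and intact it was 0.57, and 0.81 and 0.33 within the batches. The order intact, 14 days, 4 months was thus found in each batch.

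In the fit with SV1, the log2 differences between 4 months and intact in the PH were 1.37 (SE 0.31) for *Hba-a1*, 1.35 (SE 0.31) for *Hba-a2*, 1.359 (SE 0.27) for *Hbb-bs* and 1.53 (SE 0.30) for *Hbb-bt*. These correspond to folds of 2.59, 2.55, 2.56 and 2.89. The median over all 21976 genes tested was -0.01. For summed copies, the difference was 1.358 (SE 0.30) for the α pair and 1.38 (SE 0.27) for the β pair. For 5 of the 7 genes, the 4 globin genes and *Alas2*, the 4-month libraries were higher than the intact ones without overlap, as was the case for 0.551% of all genes tested. *Alas2*, whose call here was known when the genes were chosen, was the 1 of 7 called, beside 0.0319% of all genes. The choice of genes fixed both counts, and nothing is read from them.

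Against 14 days, the 4-month differences in the PH were 0.83 (SE 0.29) for *Hba-a1*, 0.75 (SE 0.29) for *Hba-a2*, 0.72 (SE 0.25) for *Hbb-bs* and 0.80 (SE 0.285) for *Hbb-bt*. They also share the 4-month libraries with the known result and were not tested. Replicate 3 of the 4-month group was the highest library for each globin gene. Without it, the 4 differences were 0.48, 0.46, 0.42 and 0.45, and those from intact 1.09, 1.12, 1.12 and 1.25. Without 14-day replicate 5, the 4 differences from 14 days were 0.81, 0.70, 0.70 and 0.78.

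At 14 days, the differences from intact in the PH were 0.54 (SE 0.31) for *Hba-a1*, 0.60 (SE 0.32) for *Hba-a2*, 0.63 (SE 0.27) for *Hbb-bs* and 0.73 (SE 0.31) for *Hbb-bt*. None of the 7 genes was called by limma (adjusted *P* = 0.9998 for each), and 0% of all genes tested were, while 667 of these, or 3.04%, had an unadjusted *P* under 0.05, among them *Hbb-bs*, *Hbb-bt* and *Alas2*. This comparison uses the same intact libraries as the 4-month one. By a two-sided exact permutation test of the libraries without SV1, *Hbb-bs* had *P* = 0.00476, the smallest that 4 against 6 libraries allow, unadjusted and 1 of 28 such tests run on the 7 genes. Permuted within batches, it had an exact *P* of 0.01. The 1 of 7 genes without overlap compares with 0.278% of all genes that were higher without overlap. Without 14-day replicate 5, the differences were 0.62, 0.73, 0.70 and 0.80, and no gene was called. When only these 2 groups were fitted, *Hbb-bt* was called (log2 difference 0.82, adjusted *P* = 0.0304).

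In the POA, the globin genes showed the same order of group medians, with more overlap. *Hba-a1* signal in the 5 intact libraries was 995, 898, 1116, 1077 and 2169. It was 1035, 1596 and 2072 (lowest, median and highest) at 14 days and 1187, 2407 and 2665 at 4 months. The fifth intact library was above every 14-day library for *Hba-a1*.

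*Hba-a2* signal in intact POA was 3197, 2530, 3239, 2716 and 6159. It was 3350, 4558 and 6526 at 14 days and 3278, 5649 and 8037 at 4 months. All post-OVX libraries were above the 4 lower intact libraries, and most were below the fifth.

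*Hbb-bs* signal in intact POA was 3230, 3030, 3543, 3173 and 6749, and *Hbb-bt* signal was 433, 415, 521, 515 and 1030. At 14 days, *Hbb-bs* was 4002, 5343 and 7268 (lowest, median and highest) and *Hbb-bt* 566, 864 and 1136. At 4 months, *Hbb-bs* was 4206, 6348 and 10016 and *Hbb-bt* 689, 1077 and 1633. For both, each post-OVX library exceeded 4 of the 5 intact libraries, and the groups overlapped because of intact replicate 5.

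The hemoglobin mean of the POA was 10.73 ± 0.50 (SD, n = 5) in intact mice. It was 11.22 ± 0.33 (SD, n = 6) at 14 days and 11.58 ± 0.46 (SD, n = 6) at 4 months. At 4 months it differed from intact by 1.38 within batch 1 and by 0.42 within batch 2, which holds intact replicate 5. From 14 days to 4 months it differed by 0.82 within batch 1 and by -0.12 within batch 2, so the order of the 2 post-OVX groups did not hold in both batches.

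The fitted 4-month differences from intact in the POA were 0.85 (SE 0.26) for *Hba-a1*, 0.76 (SE 0.27) for *Hba-a2*, 0.86 (SE 0.26) for *Hbb-bs* and 1.07 (SE 0.27) for *Hbb-bt*. None of the 7 genes was called by limma, and 0.0937% of all genes tested were. Adjusted *P* was 0.342, 0.416, 0.342 and 0.220 for the 4 globin genes, and these 4 and *Alas2* had an unadjusted *P* under 0.05, as did 8.5% of all genes. *Slc4a1*, which passed the filter of the POA through the 4-month group, is left out of that count. Two-sided exact permutation *P* values without SV1 were 0.0303, 0.0433, 0.0216 and 0.0173, unadjusted, and the smallest possible was 0.00216. Permuted within batches, the exact *P* values were 0.04, 0.065, 0.03 and 0.02, so that of *Hba-a2* was no longer under 0.05. Without intact replicate 5 the differences were 1.03, 0.96, 1.06 and 1.28, and adjusted *P* was 0.185, 0.276, 0.162 and 0.0938.

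At 14 days in the POA, the differences were 0.43 (SE 0.26) for *Hba-a1*, 0.47 (SE 0.27) for *Hba-a2*, 0.55 (SE 0.26) for *Hbb-bs* and 0.67 (SE 0.27) for *Hbb-bt*. None of the 7 genes was called by limma (adjusted *P* from 0.799 to 0.981), against 0.00468% of all genes. At an unadjusted *P* under 0.05, *Hbb-bt* alone of the 7 was found (limma *P* = 0.0252, exact permutation *P* = 0.0455), against 6.14% of all genes. Between 4 months and 14 days, the globin differences were 0.29 to 0.42 and no gene of the 7 was called (adjusted *P* from 0.964 to 0.9999), against 0.0281% of all genes. At an unadjusted *P* under 0.05 only *Alas2* was found (limma *P* = 0.0329, exact permutation *P* = 0.0238), against 5.11%. In the POA, 0 of the 7 genes separated from intact without overlap at either time, against 0.262% of all genes at 14 days and 0.412% at 4 months that were higher without overlap. Between 4 months and 14 days 0 did as well, against 0.0703%.

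**Figure D2:**
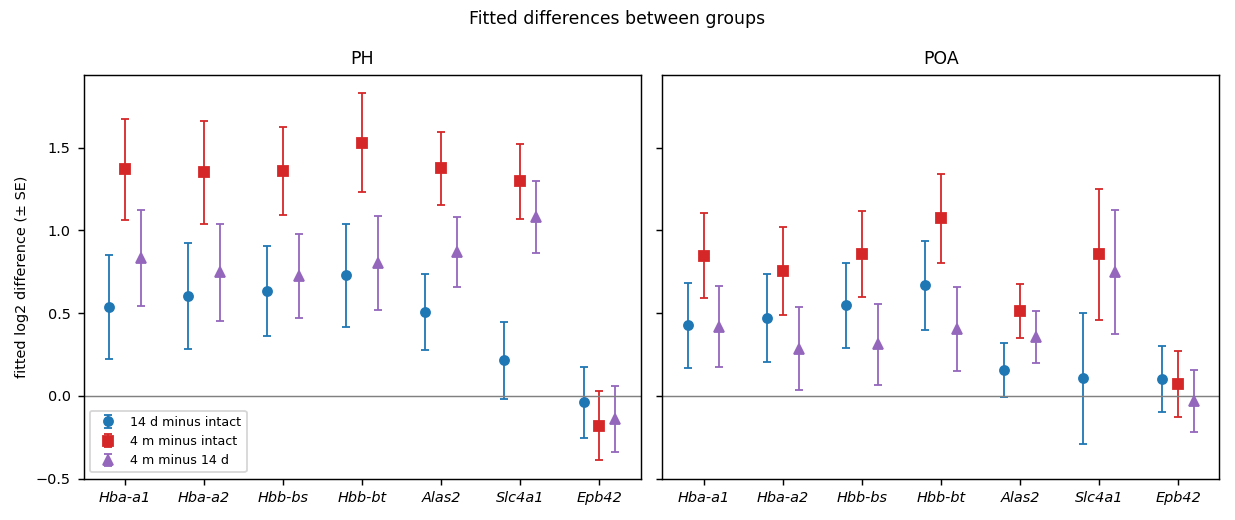
Fitted log2 differences between groups (y axis, ± SE) of the 7 genes (x axis) in the PH and the POA, from limma with SV1. Colors and shapes are the 3 comparisons of a region. The 4 globin genes lie between 1.35 and 1.53 in the PH at 4 months and between 0.76 and 1.07 in the POA, and *Epb42* lies near 0 in all.

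*Alas2* followed the globin genes closely. Its signal in intact PH was 188, 128, 146 and 127. It was 135, 224 and 264 (lowest, median and highest) at 14 days and 265, 370 and 642 at 4 months. The 4-month libraries lay above every intact and every 14-day library, and *Alas2* was the 1 gene of the 7 that did not overlap between 4 months and 14 days in the PH, where 0.127% of all genes were higher without overlap. The lowest 4-month library and the highest 14-day library, at 265 and 264, were nearly level.

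The *Alas2* differences in the PH were 1.37 (SE 0.22) between 4 months and intact, 0.87 (SE 0.21) between 4 months and 14 days, and 0.51 (SE 0.23) between 14 days and intact. The last had an unadjusted *P* of 0.0410 by limma and an adjusted *P* of 0.9998. Without 4-month replicate 3, the first 2 were 1.19 and 0.64.

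In intact POA, *Alas2* signal was 202, 177, 184, 156 and 324. It was 176, 235 and 245 (lowest, median and highest) at 14 days and 210, 300 and 341 at 4 months. As for the globin genes, the fifth intact library lay among the 4-month libraries.

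The *Alas2* difference in the POA was 0.51 (SE 0.16) between 4 months and intact (limma adjusted *P* = 0.347, exact permutation *P* = 0.0368, and 0.05 when permuted within batches). It was 0.16 (SE 0.16) at 14 days (adjusted *P* = 0.912) and 0.36 (SE 0.16) between 4 months and 14 days (adjusted *P* = 0.964, exact permutation *P* = 0.0238). Without intact replicate 5 the difference was 0.68 at 4 months (adjusted *P* = 0.0938) and 0.32 at 14 days (adjusted *P* = 0.966). In the fit of all 33 libraries, the 4-month difference of *Alas2* in the PH exceeded that in the POA by 0.87 (SE 0.28), which rests on the known PH result and was not tested.

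The offset between *Alas2* and the hemoglobin mean was nearly level across groups in the PH. It was -3.23 ± 0.21 (SD, n = 4) on the log2 scale in intact mice, -3.30 ± 0.20 (SD, n = 6) at 14 days and -3.28 ± 0.24 (SD, n = 6) at 4 months. In the POA it was -3.07 ± 0.20 (SD, n = 5), -3.41 ± 0.20 (SD, n = 6) and -3.41 ± 0.32 (SD, n = 6). In the PH, *Alas2* and the globin genes thus differed between groups by nearly the same factor. In the POA, the *Alas2* difference was smaller than that of the globin genes.

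When the hemoglobin mean replaced SV1 as the covariate, the difference of *Alas2* between 4 months and intact PH was 0.34 (SE 0.23), against 1.37 with SV1. In the POA it was 0.04 (SE 0.15), against 0.51.

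**Figure D3:**
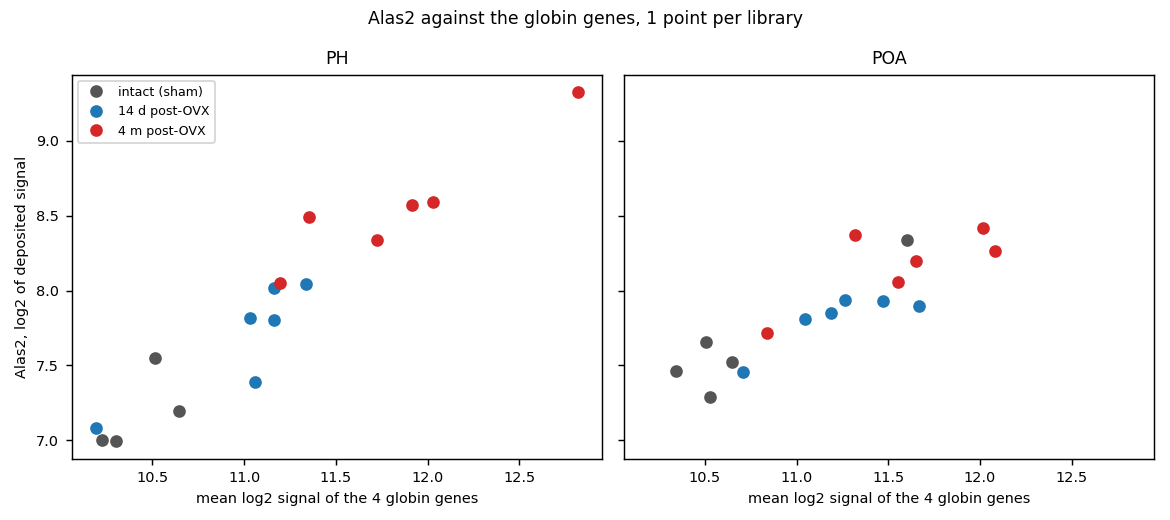
Log2 signal of *Alas2* (y axis) against the mean log2 signal of the 4 globin genes (x axis), 1 point per library, for the PH (left) and the POA (right), colored by group. Libraries with more globin signal also had more *Alas2* signal, within groups as well as between them.

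Within groups, the same genes varied together from library to library. After group means were subtracted, *Alas2* correlated with *Hba-a1* in the PH (Pearson *r* = 0.79, permutation *P* = 0.00034, adjusted over 14 relations 0.00076, Spearman rho = 0.70, permutation *P* = 0.00308, adjusted 0.00616, n = 16). In the POA, *r* was 0.76 (permutation *P* = 0.00038, adjusted 0.00076) and rho 0.65 (permutation *P* = 0.00578, adjusted 0.0101, n = 17). Without the 2 libraries farthest from the median, *r* was 0.54 in the PH and 0.51 in the POA, so part of the relation rests on these. Within batches 1 and 2, *r* was 0.90 and 0.88 in the PH, and for the POA it was 0.65 and 0.89.

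*Hba-a1* correlated with the 3 other globin genes at *r* of 0.77 to 0.85 in the PH, and for the POA at 0.90 to 0.93. Reads shared by the copies enter the relation of *Hba-a1* with *Hba-a2*, whereas *Hbb-bs*, *Hbb-bt* and *Alas2* lie on other chromosomes. *Epb42* had *r* of -0.13 in the PH and -0.32 in the POA. *Slc4a1* had *r* of -0.02 in the PH, and in the POA *r* of 0.41 (permutation *P* = 0.102, adjusted 0.159) and rho of 0.63 (permutation *P* = 0.00761, adjusted 0.0118).

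Among 21202 genes tested in both regions, ranked by the lower of the 2 regional within-group *r* with the hemoglobin mean, *Alas2* came directly after the 4 globin genes that make up the mean, with *r* of 0.87 in the PH and 0.84 in the POA. *Slc4a1* ranked 4267 and *Epb42* 16987. The 10 genes outside the group that ranked highest were *Esam*, *Mycn*, *Cbs*, *Vdr*, *Gpt2*, *Phyhd1*, *Gm49494*, *Acp6*, *Klf4* and *Wfdc1*, with a lower *r* of 0.66 for *Esam*, an endothelial adhesion molecule, down to 0.59 for *Wfdc1*. A gap thus separated *Alas2*, at 0.84, from the next gene. For *Alas2* as the reference, the 4 globin genes came first (0.76 to 0.86), followed by *Adap2* at 0.67, *Gm26555* at 0.55, *Phyhd1* at 0.54, *Map3k8* at 0.54 and *Gm43941* at 0.53.

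*Slc4a1* was low in most libraries. Its signal in intact PH was 50.1, 25.8, 34.0 and 34.8. It was 36.3, 42.5 and 91.6 (lowest, median and highest) at 14 days and 46.2, 94.4 and 123 at 4 months. In the PH, 5 of 6 libraries at 4 months exceeded every intact library, and the highest 14-day value was that of replicate 5, in which the globin genes were lowest.

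The *Slc4a1* differences in the PH were 1.30 (SE 0.23) between 4 months and intact, 1.08 (SE 0.22) between 4 months and 14 days, and 0.22 (SE 0.23) between 14 days and intact, the last with an adjusted *P* of 0.9998 by limma. With 100 added to each value before the log, the first was 0.48 and the second 0.43, since the gene lies near the floor.

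In intact POA, *Slc4a1* signal was 97.9, 33.1, 29.1, 30.8 and 34.2. It was 29.7, 43.0 and 78.1 (lowest, median and highest) at 14 days and 37.9, 66.2 and 178 at 4 months. The 4-month libraries lay above 4 of the 5 intact libraries, and only 1 lay above the first intact library.

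The difference between 4 months and intact POA was 0.86 (SE 0.40). The signal was over 44.2 in 1 of 5 intact libraries, 1 of 6 at 14 days and 5 of 6 at 4 months, so the filter favored a difference here and no *P* is given. Without intact replicate 1 it was 1.27, and the 14-day difference was 0.51 in place of 0.11 (adjusted *P* = 0.878 and 0.981).

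*Epb42* did not follow the other genes. Its signal in intact PH was 63.7, 61.4, 50.5 and 48.9. It was 42.2, 58.3 and 99.0 (lowest, median and highest) at 14 days and 33.8, 46.9 and 82.1 at 4 months. Of the 4-month libraries, 4 of 6 lay below every intact library.

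In intact POA, *Epb42* signal was 47.8, 63.3, 44.1, 39.8 and 31.8. It was 41.3, 46.1 and 59.2 at 14 days and 32.9, 48.1 and 69.9 at 4 months. The groups overlapped widely. The fitted differences of *Epb42* were -0.18 (SE 0.21) between 4 months and intact in the PH, -0.04 (SE 0.22) at 14 days in the PH, and 0.07 (SE 0.20) at 4 months and 0.10 (SE 0.20) at 14 days in the POA. Adjusted *P* of the 3 tested ones was 0.947 or higher by limma.

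**Figure D4:**
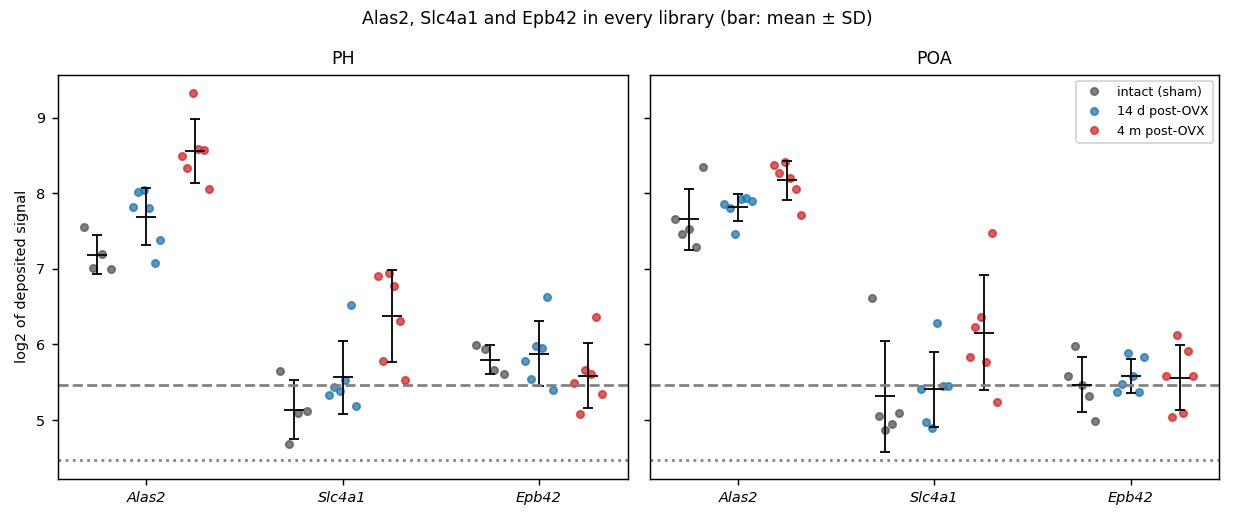
Log2 of the deposited signal (y axis) of *Alas2*, *Slc4a1* and *Epb42* (x axis) in each library, with mean ± SD. The dotted line is the floor at 22.1 and the dashed line the filter at 44.2. *Alas2* lies well over both in every library, whereas *Slc4a1* and *Epb42* straddle the filter.

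The differences between the regions at 14 days were tested as an interaction. The fit treated all 33 libraries as independent, although both regions were taken from the same females by the study's methods. The labels do not match libraries to animals, so this pairing could not be used. None of the 7 was called by limma (adjusted *P* = 0.99995 for each), against 0.00452% of all genes, and 0 of the 7 had an unadjusted *P* under 0.05, against 2.99%. The PH minus POA difference was 0.05 to 0.13 for the globin genes, with SE of 0.37 to 0.41, and 0.34 (SE 0.28) for *Alas2*. For each globin gene the SE was larger than the difference itself.

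Other genes of red cells and of their formation did not pass the test in any comparison. Of the 8 other heme synthesis genes, which many tissues express, 0 were called in either direction, and their median difference at 4 months was 0.07 in the PH, against -0.03 in the POA. *Alas1*, the form of the synthase found in most tissues, differed by 0.10 (SE 0.12) and -0.05 (SE 0.08), and *Fech*, which inserts iron into heme, by 0.08 (SE 0.07) and -0.03 (SE 0.05). These 2 genes, and *Bpgm* among the late red cell genes, were named for their roles after their values were seen.

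Of the 9 other globin genes listed, 7 were in the table. The embryonic *Hbb-y* and *Hba-x* lay under 44.2 in every library, with medians of 22.1, at the floor. *Ngb* and *Cygb*, globins of neurons and other cells, were over it in every library, and at 4 months they differed by -0.09 and 0.12 in the PH, against 0.06 and 0.00 in the POA. Of the 4 tested, 0 were called.

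Of the 8 erythroid transcription factors and the erythropoietin receptor, *Gata1* and *Gfi1b*, which are needed in red cell precursors, were under 44.2 in all 33 libraries, with medians of 23.4 and 22.3. *Klf1*, which activates the adult β globin gene, was over it in 6 libraries, with a median of 37.3. *Tal1*, *Zfpm1*, *Lmo2* and *Epor* were over it in all, and 0 of these 4 were called in any comparison.

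Of 17 other genes of the red cell membrane and skeleton, 13 were tested in each region and 0 were called. *Rhag* and *Kel* lay under 44.2 in every library. The median of the list was 0.08 in the PH and -0.06 in the POA.

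Of 18 late red cell genes, 14 were tested and 0 were called, with medians of 0.01 and 0.02. *Bpgm*, which makes the hemoglobin ligand 2,3-bisphosphoglycerate, differed by 0.00 (SE 0.06) and 0.01 (SE 0.06) at 4 months. The largest differences of the list in the PH at 4 months were those of *Isg20*, an exonuclease gene, at 0.61 (SE 0.16, limma adjusted *P* = 0.396), and *Tent5c*, a poly(A) polymerase gene, at 0.61 (SE 0.16, adjusted *P* = 0.406). In the POA they were 0.54 (SE 0.13, limma adjusted *P* = 0.158) and 0.36 (SE 0.14, adjusted *P* = 0.475). Both were named after their values were seen. *Hemgn* was over 44.2 in 2 libraries and *Car1* in 4. Of the 8 genes that clear hemoglobin and heme, such as *Hmox1*, *Hp* and *Cd163*, 7 were tested and 0 were called, with medians of 0.04 and -0.02.

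Many markers of other blood cells were low, but not all. The median gene level was 32.6 for the neutrophil list, 42.0 for platelets, 51.1 for lymphocytes and 39.0 for monocytes. The neutrophil genes *Mmp9*, *Cxcr2* and *Csf3r* were over 44.2 in all 33 libraries. Of 11 neutrophil genes, *Ly6g*, *Camp*, *Retnlg* and *Mmp8* lay under 44.2 in every library, and the summed signal of the list was 560.0 to 683 in intact PH, 476 to 739 at 14 days and 599 to 966 at 4 months. In the POA these ranges were 579.9 to 762, 519 to 756 and 533 to 780.3. For 12 platelet genes the sum was 642 to 696, 533 to 730.3 and 633 to 717 in the PH, and 636 to 700.4, 616 to 748 and 633 to 727 in the POA. For 11 lymphocyte genes it was 894 to 1209.6, 934 to 1554 and 1113 to 2547 in the PH, and 989 to 1266, 1066 to 1433 and 1128 to 1411 in the POA. For 5 monocyte genes it was 196 to 294, 175 to 286 and 212 to 304 in the PH, and 206 to 248, 211 to 264 and 233 to 261 in the POA. Of these 4 lists, 0 genes were called in any comparison, and their sums overlapped between groups. The lymphocyte gene *Ighm*, named after its values were seen, had signals of 414 to 1623 over all libraries. At 4 months it differed from intact by 0.62 in the PH (SE 0.23, limma adjusted *P* = 0.707) and 0.24 in the POA (SE 0.14, adjusted *P* = 0.683). The median of its list was 0.14 in the PH and 0.22 in the POA.

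Genes of vessel cells were also somewhat higher in libraries with more globin signal. The summed signal of 14 endothelial genes was 11215 to 12454 in intact PH, 11922 to 15268 at 14 days and 13028 to 17462 at 4 months, so the 4-month and intact libraries of the PH did not overlap. In the POA it was 11861 to 12707, 12289.8 to 13440.2 and 11967 to 16421. All 14 were over 44.2 in every library, 0 were called, and the median difference at 4 months was 0.21 in the PH and 0.15 in the POA. Single differences ran from -0.08 for *Slco1a4* to 0.68 for *Vwf* in the PH, with 11 above 0 and 3 below. In the POA they ran from -0.18 for *Slco1a4* to 0.65 for *Kdr*, with 12 above 0 and 2 below. These genes were named after their values were seen. Within groups, the mean of the list correlated with the hemoglobin mean at *r* of 0.46 (PH, n = 16) and 0.48 (POA, n = 17). Such a relation was not limited to vessel genes. Late red cell genes had *r* of 0.34 (PH) and 0.71 (POA), and the POA value was the highest of any list. For neutrophil genes *r* was -0.27 (PH) and 0.51 (POA), and for lymphocyte genes -0.37 (PH) and 0.37 (POA). The hypothalamic genes had 0.43 (PH) and 0.21 (POA). The 9 mural cell genes had median differences of 0.23 and 0.21 and 0 were called. The part of vessel content in the globin differences was not tested.

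The sum of 5 choroid plexus genes varied from 1031 to 84440 between libraries and overlapped widely between groups, with a within-group *r* of -0.34 in the PH and 0.00 in the POA with the hemoglobin mean. The 6 genes of meningeal fibroblasts had a within-group *r* of -0.10 and 0.07, and the 6 neuronal genes of -0.24 and -0.35. In none of the 3 lists was a gene called, and the same held for the 9 hypothalamic genes.

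**Figure D5:**
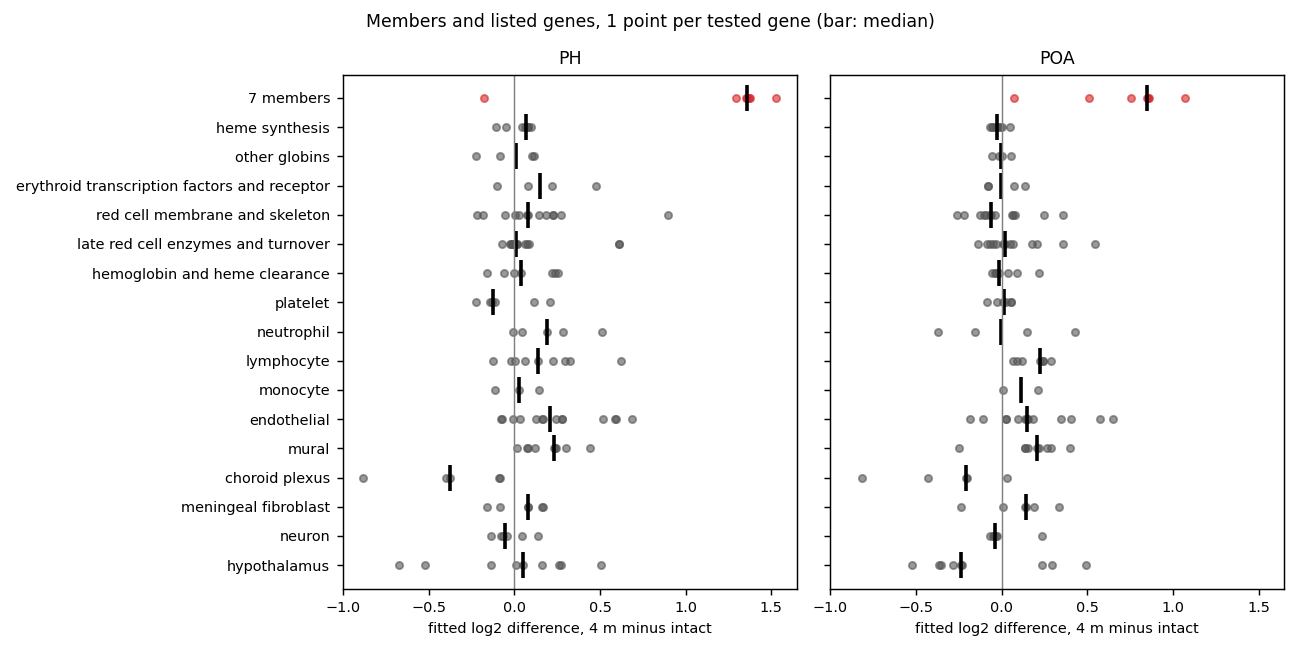
Fitted log2 differences between 4 months post-OVX and intact mice (x axis) of the 7 genes and of the tested genes of each list (y axis), in the PH and the POA. Points are genes and bars are medians. The median of the 7 genes was 1.359 in the PH and, for the POA, 0.85, and the medians of the other lists lay between -0.38 and 0.23 in the PH and between -0.24 and 0.22 in the POA.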

How the data were processed

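RNA of mouse PH and POA was sequenced as 50 bp paired-end reads after stranded mRNA library preparation. The authors pseudoaligned the reads with kallisto (mm39) and used tximport (v1.24.0) and DESeq2 (v1.36.0). The deposited values are a normalized signal on a linear scale, and the step that made them is not given in the sources used here. They are not counts, so the count test that had been planned gave way to a linear model in limma (R 4.3.3, limma 3.58.1) of log2 signal without a pseudocount, with trend and robust variance, on the 3 groups of a region. Its covariate was SV1, from iteratively reweighted surrogate variable analysis written in base R (5 rounds). Benjamini-Hochberg adjustment ran over every tested gene, 21976 in the PH, 21346 in the POA and 22120 in the interaction fit of 33 libraries, and genes were called at an adjusted *P* under 0.05. The 1259 unnamed entries were left out. Correlations used 100000 permutations in numpy (2.4.6). Nothing states which libraries share an animal, and *P* values cover the spread between these libraries. The fit was tested on simulated data with a hidden factor. That simulation had no batches, signal floor or outlying library, and its changes were larger than most differences tested here, so it does not cover these.

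The 7 genes, the gene lists, the tests and the alternatives were chosen with earlier results of these data known. Named are the 7 genes, any called gene of the lists, list genes by their level against the floor, and the genes most like the hemoglobin mean (10) and *Alas2* (5) by the lower of the 2 regional correlations. As alternatives, SV1 was dropped, swapped for batch or joined with it, and further fits used a replicate block, 2 groups only, single batches, a pseudocount of 100, no filter, the hemoglobin mean as covariate, summed copies, exact permutation and each library left out. One item is not reported here.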

Additional observations from a re-analysis of the deposited data

Results flagged for a closer look

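A value far from the others of its group was found in 11 of the 48 sets of values tested. Each set held a gene or the hemoglobin mean in a group of 4 to 6 libraries. Chance gives about 1 in 20, and the genes share libraries. In the POA, intact replicate 5 was high for *Hba-a1* (2169), *Hba-a2* (6159), *Hbb-bs* (6749), *Hbb-bt* (1030.2) and the hemoglobin mean (11.60 on the log2 scale). In the PH, 14-day replicate 5 was low for *Hba-a1* (683), *Hba-a2* (1651) and the hemoglobin mean (10.19), and high for *Slc4a1* (91.6). *Slc4a1* was high in intact POA replicate 1 (97.9), and *Alas2* was low in 14-day POA replicate 3 (176).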

How the results depend on the processing

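No gene of the 7 passed the adjusted test in a tested comparison under any alternative, except *Hbb-bt* in the PH at 14 days when only the 2 groups were fitted, where 1 of the 7 was called. The cause was not tested. With each library left out in turn, 0 were called, and the median difference of the 7 in the PH was 1.12 to 1.48 between 4 months and intact and 0.46 to 0.89 between 4 months and 14 days. The direction turned mostly for *Epb42*. In the PH at 14 days its difference was 0.0785 with batch in place of SV1, without a covariate and in the permutation test, 0.36 in batch 2 and 0.14 with the hemoglobin mean, and -0.13 to 0.0388 with a library left out. In the POA it was -0.20 at 14 days and -0.20 at 4 months in batch 1, and -0.0038 to 0.24 and -0.0338 to 0.21 with a library left out. Between 4 months and 14 days it was 0.0009 with SV1 and batch, 0.0057 in batch 1, 0.068 with the hemoglobin mean and -0.14 to 0.088 with a library left out. *Slc4a1* in the POA at 14 days was -0.74 in batch 1, -0.12 with the hemoglobin mean and -0.09 to 0.51 with a library left out, and *Alas2* was -0.12 with the hemoglobin mean. Between 4 months and 14 days in batch 2 of the POA, *Hba-a2* was -0.18, *Hbb-bs* -0.14 and *Hbb-bt* -0.16. With a library left out, the difference between regions at 14 days was -0.0813 to 0.28 for *Hba-a1*, -0.13 to 0.32 for *Hba-a2*, -0.10 to 0.21 for *Hbb-bs*, -0.17 to 0.17 for *Hbb-bt*, -0.0139 to 0.46 for *Slc4a1* and -0.19 to 0.0136 for *Epb42*.

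Replicate numbers recur across groups, but nothing says that they mark a shared animal or day. Same-numbered libraries deviated together (*r* over 0.1) in 9 of 14 pairs of the PH and 14 of 16 of the POA, and differently numbered ones in 20 of 70 and 32 of 80. Pairs of the same batch did so in 26 of 42 and 46 of 48, and pairs of different batches in 3 of 42 and 0 of 48, so the pattern followed batch. In the PH 6 of 16 libraries and in the POA 5 of 17 correlated best with their own number. With the replicate number as a block, 0 of the 7 genes were called in each tested comparison, and the median difference of the 7 in the PH was 1.498 between 4 months and intact and 0.79 between 4 months and 14 days. Over all genes, 1 was called with the block in the POA at 4 months, against 20 without it. Over the alternatives that keep every library or take 1 batch, all-gene counts were 0 to 2 in the PH at 14 days and 0 to 9 at 4 months (7 as reported), and 0 to 21 in the POA at 4 months. With a library left out they were 0 to 1, 5 to 14 and 4 to 35. Depth is unknown, and *Slc4a1* and *Epb42* lie near the floor, which limits their differences.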
